A study of Homo sapiens with 24 samples.

Results

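The genes described here are the subunits of the nuclear RNA polymerases and of the Mediator complex. They were taken by gene symbol, from the rows whose name begins with POLR1, POLR2 or POLR3 and a subunit letter from A to L or with MED and a number. This gave 61 of 12547 endogenous genes, of which 30 were polymerase rows and 31 Mediator rows. POLR2J4 and MED15P9 in these counts are pseudogenes, and POLR2J, POLR2J2, POLR2J3 and POLR2J4 are near-identical copies whose reads cannot be assigned with certainty.

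PolyA RNA was sequenced from U2OS, a human osteosarcoma cell line, in 24 libraries. The study asked how the RNA-binding protein QKI affects mRNA stability. Cells carried the guide sgNS with an empty vector (sgNS+EV), the guide sgQKI with an empty vector (sgQKI+EV), or sgQKI with an added QKI7, either QKI7-WT or QKI7-△KH, the latter named for its KH domain. RNA was taken at 0, 4 and 8 h of a chase with 5 µg/mL actinomycin D, which blocks transcription, and 200 µM sodium arsenite, an oxidative stressor. All 4 genotypes received both agents, so each loss was measured under stress, and no library with actinomycin D alone was analysed here. Each of the 12 groups had 2 libraries. The labels do not say whether these came from separate cultures, so p-values measure the spread between these libraries, which may be technical, and they do not say whether each genotype is a clone or a pool.

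RNA polymerase I transcribes ribosomal RNA, polymerase II messenger RNA, and polymerase III transfer RNA and other small RNAs. Each has its own pair of large catalytic subunits, and they share a set of small subunits. Mediator passes signals from DNA-bound activators to polymerase II through head, middle and tail modules built around MED14, and a separable kinase module of MED12, MED13, a cyclin and CDK8 or their close relatives binds to it.

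Values are a signal that was normalised to ERCC spike-in RNAs. Per library, the ERCC sum ran from 11485 to 11940 and the sum over endogenous genes from 690431 to 1367862. Read depth is unknown, and levels of different genes were not compared because the unit before normalisation is not given in the sources used here. In bulk RNA, fewer cells and less RNA per cell cannot be told apart. The QKI row, the check of the targeted gene, read 60.0 and 48.2 in sgNS+EV at 0 h and 36.0 and 32.7 in sgQKI+EV (limma, log2 difference -0.63, SE 0.14, adjusted p = 0.0264). The signal was 47.6 and 50.2 in QKI7-△KH, and QKI7-WT had 60.4 and 46.3, where the row cannot separate the gene's own transcript from that of the construct. Of the markers checked, 7 of 12 mesenchymal and osteosarcoma genes, 4 of 8 epithelial genes and 0 of 8 blood cell genes were listed. SP7, ALPL, BGLAP, IBSP and COL1A2, which mark bone-forming cells or their matrix, and CDH1 of epithelia were not among the listed rows.

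The median Mediator mRNA was lost faster than the median polymerase mRNA in every genotype. Averaged over the genotypes, the median Mediator mRNA fell by 0.90 on the log2 scale from 0 h to 8 h, the median polymerase mRNA fell by 0.56, and the median of all genes fell by 0.76. All 30 polymerase and all 31 Mediator rows were lower at 8 h by limma at an adjusted p under 0.05, which was also true of 95.7% of all genes, so the call itself is no property of these complexes. A fall of at least 1 log2 unit was reached by 7 polymerase and 13 Mediator rows, against 30.4% of all genes. No member rose, against 0.614% of all genes. Falls larger than the median gene were seen for 20 of 31 Mediator and 11 of 30 polymerase rows.

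The gap between the classes was present in each of the 8 libraries taken at 8 h. The Mediator median was below the polymerase median by 0.20 to 0.39 log2 units in those libraries, where each value is relative to its genotype's 0 h mean. At 0 h the same gap lay between -0.030 and 0.030. Those values centre on 0 by construction and show only the spread between the 2 libraries of a group. The difference between the class medians was -0.26 in sgNS+EV, -0.36 in sgQKI+EV, -0.33 in QKI7-△KH and -0.31 in QKI7-WT. It is a description of these members and carries no test.

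**Figure D1:**
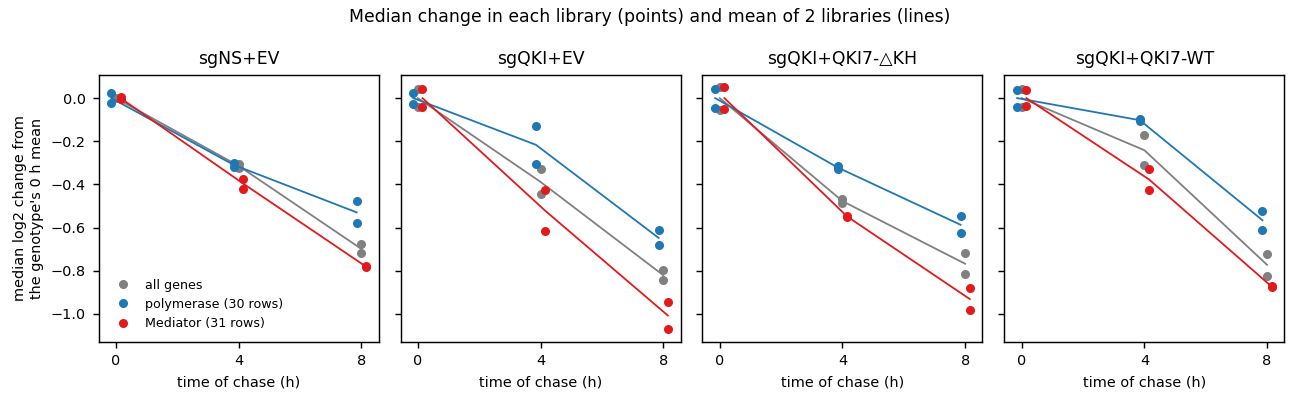
Median log2 change of the 30 polymerase rows, the 31 Mediator rows and all genes (vertical axis) in each library at 0, 4 and 8 h (horizontal axis), 1 panel per genotype. Points are libraries and lines join the means of 2 libraries. At 8 h the Mediator points lie below the polymerase points in all 4 genotypes.

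Within single genotypes, 26 polymerase and 30 Mediator rows were lower at 8 h in sgNS+EV (88.2% of all genes), 28 and 31 in sgQKI+EV (90.5%), 27 and 31 in QKI7-△KH (90.6%), and 27 and 30 in QKI7-WT (90%). The rows that missed the threshold in at least 1 genotype were POLR2G, POLR2I, POLR2J2, POLR2L and MED25. Values at 0 h and 8 h did not overlap over the 8 libraries of each time for 23 of 30 polymerase and 30 of 31 Mediator rows, against 79.5% of all genes. The overlapping Mediator row was MED25.

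Averaged over the 4 genotypes, most of the gap opened by 4 h, but this did not hold in sgNS+EV. The Mediator minus polymerase median in its libraries was -0.117 and -0.056 at 4 h and -0.198 and -0.304 at 8 h. In the libraries of the other genotypes it was already -0.319 to -0.220 at 4 h. For the mean of 4 genotypes, 19 polymerase and 29 Mediator rows fell from 0 h to 4 h, against 80.2% of all genes. Their medians were -0.22 and -0.47 log2. From 4 h to 8 h, 29 and 30 fell, against 91.1% of all genes, and the medians were closer, at -0.42 and -0.48. The Mediator rows that did not pass in the first 4 h were MED16, at 0.01 (SE 0.05), and MED25, at -0.02 (SE 0.05). Both belong to the tail, the module that many activators contact.

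These falls depend on the spike-in scale. Scaling each library to its endogenous total moved the median of all genes from -0.76 to -0.25, the polymerase median to -0.02 and the Mediator median to -0.35. On that scale 12 polymerase and 24 Mediator rows were lower (62.3% of all genes), and 9 and 4 were higher (19.5% of all genes). The difference between the class medians was -0.33 on the totals scale and -0.34 as deposited. Scaling to totals divides all genes of a library by 1 factor, so it could hardly change this difference. Under quantile normalisation, which can change it, the difference was -0.24.

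Among the polymerase rows taken by symbol, the mRNAs of the large catalytic subunits fell more than those of most other subunits. POLR1A and POLR1B of polymerase I, POLR2A and POLR2B of polymerase II, and POLR3A and POLR3B of polymerase III had a median change of -1.34, and 5 of these 6 fell by at least 1 log2 unit. The other 24 polymerase rows had a median of -0.52, and 2 of them reached that size. The grouping by large subunits was made after the values were seen.

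POLR3B, the second largest polymerase III subunit, had the largest of these falls. Its signal was 9.45 to 13.3 (median 11.3) at 0 h and 2.83 to 4.97 (median 3.51) at 8 h, with no overlap, a change of -1.45 log2 (SE 0.06, limma adjusted p = 9.49e-16). POLR1A, the largest polymerase I subunit, read 36.4 to 43.0 at 0 h and 11.7 to 16.2 at 8 h and changed by -1.42 (SE 0.04). POLR3A, its counterpart in polymerase III, went from 26.1 to 31.4 down to 8.80 to 11.6 and changed by -1.39 (SE 0.04). All 3 mRNAs had separate ranges at the 2 times. Their apparent half-lives, computed from the group means at 0 h and 8 h as if each mRNA was lost at a constant rate, were 4.14 to 5.24 h for POLR3B, 4.90 to 5.76 h for POLR1A and 5.01 to 5.93 h for POLR3A over the genotypes.

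POLR2A, which carries the catalytic centre and the C-terminal repeat domain of polymerase II, was the slowest of the 6. Its signal was 64.0 to 81.1 (median 67.8) at 0 h, 45.6 to 75.0 at 4 h and 31.1 to 43.0 (median 40.1) at 8 h. The 0 h and 8 h ranges were separate, and the change was -0.86 (SE 0.05, limma adjusted p = 3.14e-14), with an apparent half-life of 7.60 to 11.04 h. POLR2B, its partner in the catalytic core, changed by -1.16 (SE 0.04).

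The largest polymerase fall was that of POLR1C, a subunit shared by polymerases I and III. It read 43.8 to 55.1 (median 48.3) at 0 h, 17.1 to 24.9 at 4 h and 8.94 to 12.1 (median 10.9) at 8 h. The 3 times did not overlap in any genotype or library. Its change was -2.09 log2 (SE 0.05, limma adjusted p = 1.15e-19), and its apparent half-life was 3.49 to 3.82 h. POLR1D, which pairs with POLR1C in both enzymes, read 19.0 to 23.8 at 0 h and 13.3 to 16.6 at 8 h and changed by -0.49 (SE 0.06). So the mRNAs of a heterodimer differed in loss by -1.68 log2 units (mean of 4 genotypes, SD 0.16, POLR1C larger in 4 of 4; exact permutation test of 0 h and 8 h within genotypes, two-sided, p = 0.00154, the smallest it can give, adjusted over 5 pairs p = 0.00192). This pair was chosen after its values were seen.

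The smallest polymerase falls were those of small subunits, but not every smaller subunit fell little. Of 5 subunits outside the symbol rule, 4 fell by at least 1 log2 unit, and the median of these was -1.095. The 5 subunits common to all 3 polymerases (POLR2E, POLR2F, POLR2H, POLR2K and POLR2L) had a median change of -0.37, and 0 of the 5 fell more than the median gene. POLR2I, a small zinc-binding subunit of polymerase II, read 70.8 to 97.2 (median 80.9) at 0 h and 62.2 to 82.5 (median 72.8) at 8 h. These ranges overlapped, and the change of -0.17 (SE 0.05, limma adjusted p = 0.00361) was the smallest of the 61. POLR2L, POLR2G of the stalk and POLR3GL changed by -0.18, -0.20 and -0.22, and their 0 h and 8 h ranges overlapped too. Scaled to library totals, POLR2I, POLR2L, POLR2G and POLR3GL rose by 0.39, 0.38, 0.36 and 0.33.

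**Figure D2:**
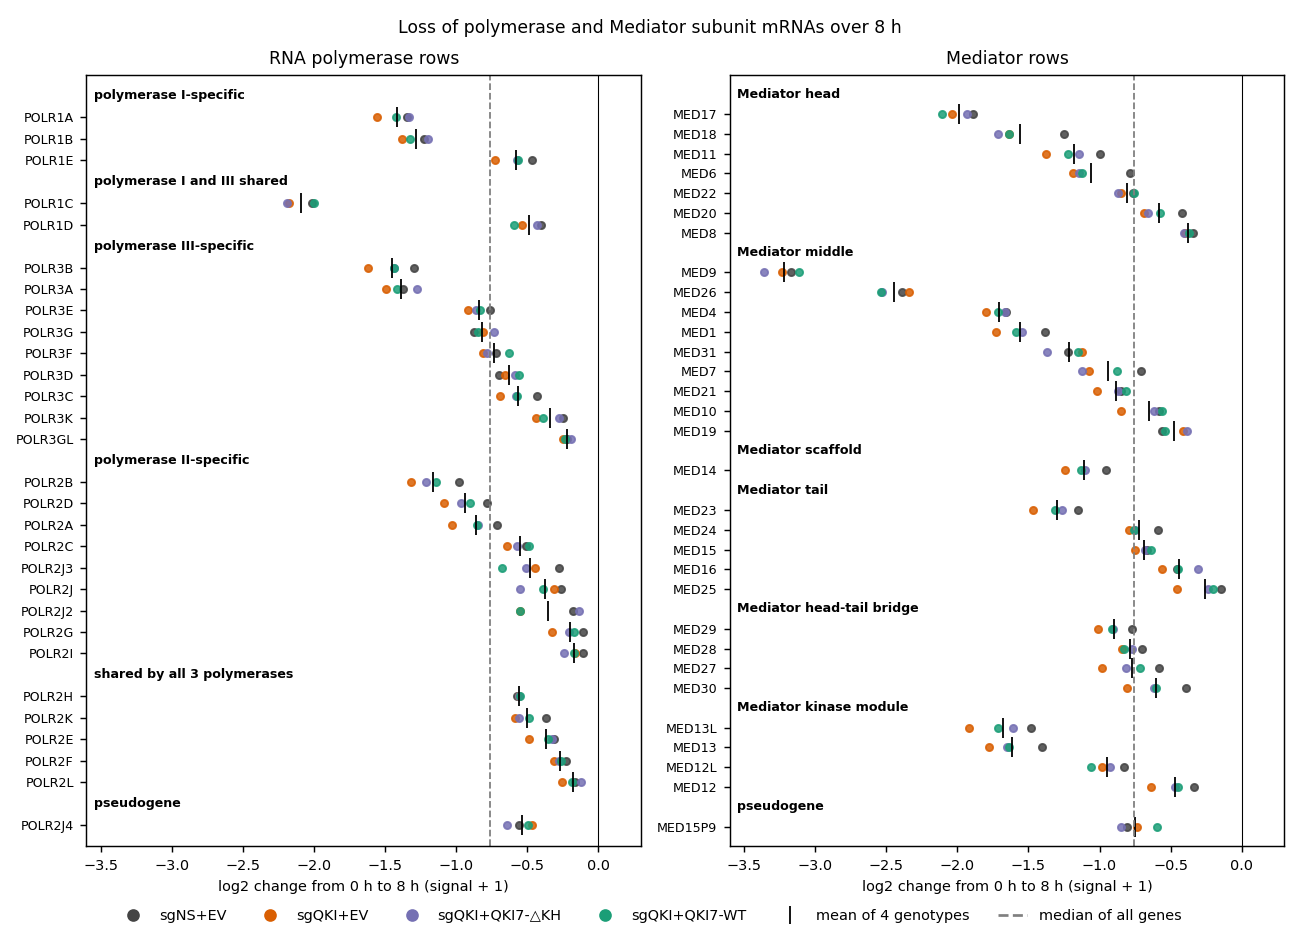
Log2 change of signal + 1 from 0 h to 8 h (horizontal axis) for the polymerase rows (left, 1 row not drawn) and Mediator rows (right), grouped by enzyme or module. Coloured points are the 4 genotypes, black bars their mean, and the dashed line the median of all genes at -0.76. MED9, MED26 and POLR1C lie farthest to the left.

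By enzyme, the polymerase II-specific rows had a median of -0.48 (9 rows), the polymerase III-specific rows -0.78 (10 rows) and the polymerase I-specific rows -1.28 (3 rows). For polymerase III the range ran from POLR3B at -1.45 to POLR3GL at -0.22. POLR3D, POLR3C and POLR3K changed by -0.63, -0.57 and -0.34. POLR1E, a smaller subunit of polymerase I, changed by -0.58, far less than POLR1A or POLR1B. Subunits of these enzymes outside the symbol rule fell as well: CRCP of polymerase III changed by -1.20 and CD3EAP of polymerase I by -1.14, while TWISTNB and POLR2M changed by -1.07 and -1.10 and ZNRD1 by -0.31 (limma, all 5 past the threshold).

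In Mediator the kinase, middle and head modules and the scaffold MED14 had larger median falls than the bridging subunits and the tail. Median changes were -1.22 in the middle (9 rows), -1.06 in the head (7 rows), -0.78 in the subunits that bridge head and tail (4 rows) and -0.69 in the tail (5 rows). MED14, the scaffold, changed by -1.11. MED12, MED12L, MED13 and MED13L of the kinase module had a median of -1.28 but ranged from -0.47 to -1.68.

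MED9, a small subunit of the middle module, had the largest fall of all 61. Its signal was 22.0 to 30.1 (median 23.6) at 0 h, 2.54 to 3.48 (median 2.89) at 4 h and 1.27 to 2.16 (median 1.74) at 8 h. Every 4 h library was below every 0 h library, and between 6.43% and 7.68% of the 0 h signal was left at 8 h. The change was -3.22 log2 (SE 0.08, limma adjusted p = 4.05e-20), which placed MED9 at percentile 0.267 of all genes from the fastest-falling end. Most of it, -2.69, came in the first 4 h, and -0.53 in the next 4 h. The apparent half-life was 2.02 to 2.16 h over the genotypes. Values near 1 to 2 are close to the lowest in the table (0.641), and a change on the value + 1 scale understates a loss at that level.

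MED26, the subunit through which Mediator recruits elongation factors, was next. It read 7.62 to 12.5 (median 9.77) at 0 h, 1.51 to 2.25 at 4 h and 0.751 to 1.15 (median 0.976) at 8 h. No 4 h or 8 h library reached the 0 h range. The change was -2.45 (SE 0.08, limma adjusted p = 7.15e-18) and the apparent half-life 2.30 to 2.47 h. MED17, the core subunit of the head, read 18.01 to 24.4 at 0 h, 8.59 to 13.6 at 4 h and 3.86 to 5.60 at 8 h and changed by -1.99 (SE 0.05). MED4 of the middle module went from 37.2 to 46.6 down to 10.5 to 14.1 and changed by -1.71 (SE 0.05). Unlike MED9, it lost more in the later interval, at -1.12, than in the first, at -0.59.

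MED1, the docking site for nuclear receptors, changed by -1.56 (SE 0.04) and MED18 of the head by -1.56 (SE 0.05). At the other end, MED25, a tail subunit contacted by activators, read 31.5 to 39.1 at 0 h and 24.3 to 36.6 at 8 h, ranges that overlapped. Its change was -0.26 (SE 0.05, limma adjusted p = 0.000131), the smallest in Mediator. MED8, MED16 and MED12 changed by -0.38, -0.44 and -0.47. Scaled to library totals, MED25, MED8, MED16 and MED12 rose by 0.29, 0.18, 0.11 and 0.08.

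Apparent half-lives restate the changes on another scale, since they come from the same 0 h and 8 h values. An apparent half-life under 8 h in all 4 genotypes was found for 13 of 31 Mediator and 6 of 30 polymerase rows, against 28.9% of all genes. Half-lives over 8 h in all 4 genotypes were found for 12 Mediator and 20 polymerase rows, and 52% of all genes had such a half-life or no loss. Half-lives beyond the length of the chase are extrapolated and rest on small changes, as for POLR2I at 32.3 to 72.8 h.

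**Figure D3:**
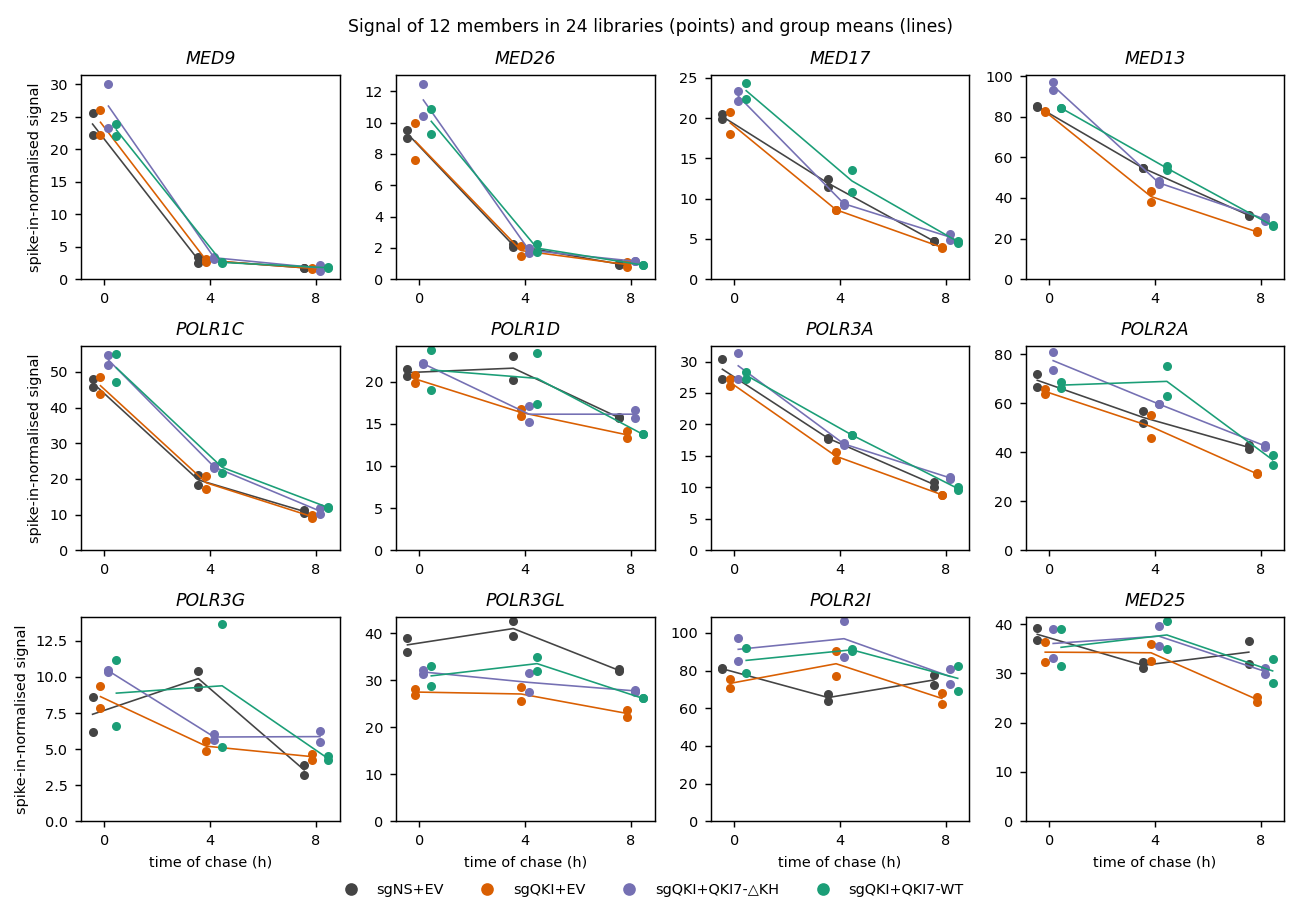
Spike-in-normalised signal (vertical axes, from 0) of 12 members at 0, 4 and 8 h (horizontal axes). Points are the 24 libraries and lines join group means of 2 libraries. MED9 and MED26 reach most of their loss by 4 h, while POLR2I and MED25 stay within overlapping ranges.

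Close relatives that occupy the same place in a complex were compared with the same exact permutation test (two-sided, 1296 arrangements, adjusted over 5 pairs). Here too log2 was taken without the added 1, which gives a larger loss for a low signal such as that of MED12L. On the value + 1 scale, with 1 library left out at a time, MED12L changed by -0.986 to -0.911 and MED12 by -0.488 to -0.456. MED12L fell more than MED12, its relative in the kinase module, by -0.84 log2 units (SD 0.11 over 4 genotypes, 4 of 4 negative, adjusted p = 0.00192). MED12L read 3.37 to 4.72 at 0 h and 1.17 to 2.10 at 8 h, and MED12 28.9 to 35.0 and 19.2 to 27.8. POLR3G fell more than POLR3GL, the alternative form of the same polymerase III subunit, by -0.72 (SD 0.08, 4 of 4 negative, adjusted p = 0.00192). POLR3G was also the most variable member: its QKI7-WT libraries read 11.2 and 6.59 at 0 h and 13.7 and 5.12 at 4 h, and its 0 h and 8 h ranges (6.21 to 11.2 and 3.21 to 6.22) overlapped.

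MED13L and MED13, which tie the kinase module to the core, were closer. MED13 read 82.5 to 97.1 at 0 h and 23.2 to 31.6 at 8 h, and MED13L 43.5 to 51.4 and 10.98 to 16.3. Their losses differed by -0.10 (SD 0.08, 3 of 4 negative, exact permutation adjusted p = 0.0108), a gap that changed sign in QKI7-△KH, at 0.01. The kinases CDK8 and CDK19 are the catalytic subunits of this module and fall outside the symbol rule. CDK8 changed by -0.93 and CDK19 by -1.09, a difference in loss of -0.19 (SD 0.08, 4 of 4 negative, exact permutation adjusted p = 0.00192), for a pair chosen after its values were seen. Their partner, cyclin C (CCNC), changed by -0.94.

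Sequences were examined to see what the fast and slow members share. Transcript models from GENCODE 29 (GRCh38) were found for 58 of 61 members. The windows printed next show AU-rich pentamers, ATTTA, in 3′ UTRs of a slow member, POLR3K, and of the faster POLR2D, MED13 and MED9. They are the mRNA strand written as DNA, 5′ to 3′, and capitals mark ATTTA copies, which may overlap.
POLR3K, chr16:46735-46764, minus strand: ATTTATTTATTTATTTAttttATTTATTTA
POLR3K, chr16:47020-47049, minus strand: acttgtgtaATTTAttATTTAttttaatca
POLR2D, chr2:127846246-127846275, minus strand: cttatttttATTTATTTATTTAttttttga
MED13, chr17:61944187-61944216, minus strand: ATTTAaaattattccctgacaggttATTTA
MED9, chr17:17492956-17492985, plus strand: ccttgggactgttATTTAactgaatcagtt

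ATTTA is the core of the AU-rich elements known to recruit decay factors to many short-lived mRNAs. The 4 genes shown next were picked after their values were seen and do not stand for all members: the Spearman correlation of the number of ATTTA copies with the change over 8 h was -0.325 across 57 members (-0.188 in 27 polymerase and -0.434 in 30 Mediator members), against -0.431 over 11306 genes. POLR3K, a small polymerase III subunit that acts in transcript cleavage, holds 14 ATTTA and 8 TTATTTATT in a 3′ UTR of 1023 bases. Its signal was 51.2 to 66.5 (median 56.3) at 0 h and 38.3 to 55.1 (median 43.4) at 8 h. These ranges overlapped, and the change of -0.34 was one of the smaller ones. POLR2D of the polymerase II stalk has 9 ATTTA in 4556 bases and changed by -0.93. MED9 has 2 in 1731 bases and changed by -3.22, and POLR1C, with no ATTTA in 226 bases, changed by -2.09.

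On the mRNA strand only, at least 1 ATTTA was present in 38 of 56 members with an annotated 3′ UTR and a full coding model (67.9%), against 70.4% of all genes. The nonamer TTATTTATT, which contains ATTTA, was present in 12.5% of members and 8.6% of all genes. Members with ATTTA had a median change of -0.89 and those without it -0.62, and over all genes the medians were -0.87 and -0.53. Genes with the motif also had longer 3′ UTRs, with medians of 1130 and 429 bases in the members, so motif and length move together. A match says only that the letters are there.

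The core motif known for QKI, ACTAAC or ACTAAT, was searched the same way, on the mRNA strand. Copies of ACTAAC, in capitals, are shown for 3 Mediator mRNAs with large falls, picked after their values were seen.
MED17, chr11:93812312-93812341, plus strand: gtttaaaatattACTAACttaagggtttct
MED17, chr11:93814561-93814590, plus strand: ggtgcctcctctACTAACctcagtggtgat
MED4, chr13:48076475-48076504, minus strand: aatacttgagtgACTAACtgaattgaaacc
MED13, chr17:61944236-61944265, minus strand: ttgtttaaaatcACTAACctatgataacca

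ACTAAC or ACTAAT was present in 20 of 56 members (35.7%), against 34.7% of all genes. Members with the motif had a median change over 8 h of -1.09 and those without it -0.595. Over all genes these medians were -0.942 and -0.674. Members with the motif also had longer 3′ UTRs, with medians of 2656 and 596 bases, so motif and length move together here too. The difference in 8 h loss between sgQKI+EV and sgNS+EV had a median of -0.17 in members with the motif and -0.17 in those without. Over all genes these medians were -0.16 and -0.14. The medians with and without the motif were alike in the pooled members but not in each class. With and without the motif they were -0.166 and -0.136 in polymerase and -0.198 and -0.266 in Mediator members. These differences were not tested.

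Coding length separated the classes in another way. Across 27 polymerase members, the change over 8 h had a Spearman correlation of -0.76 with coding length, and across 30 Mediator members it was -0.06, against -0.30 over 11306 genes. POLR1A, with 5160 coding bases, and POLR2I, with 375, lie near the ends of the polymerase relation, and POLR1C, with 1038, lies below it. In Mediator, MED12, MED13 and MED13L have similar coding lengths of 6531, 6522 and 6630 bases and changed by -0.47, -1.62 and -1.68, and MED9 has 438. With 3′ UTR length the correlations were -0.35 in polymerase, -0.51 in Mediator and -0.45 over all genes: the 3′ UTR of MED12 has 229 bases and those of MED13 and MED13L 3863 and 7394. With the length of the whole transcript they were -0.764 in polymerase, -0.246 in Mediator and -0.49 over all genes. Members of a complex are not independent and these genes share libraries, so the values are descriptions. POLR2A was left out because its coding model in this annotation is a fragment. Its longest annotated transcript has 6751 bases, and its change of -0.86 was the smallest of the 6 large subunits. The polymerase correlation therefore lacks a long member with a modest fall, and its value with POLR2A was not computed. Subunits outside the symbol rule are also not in it.

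**Figure D4:**
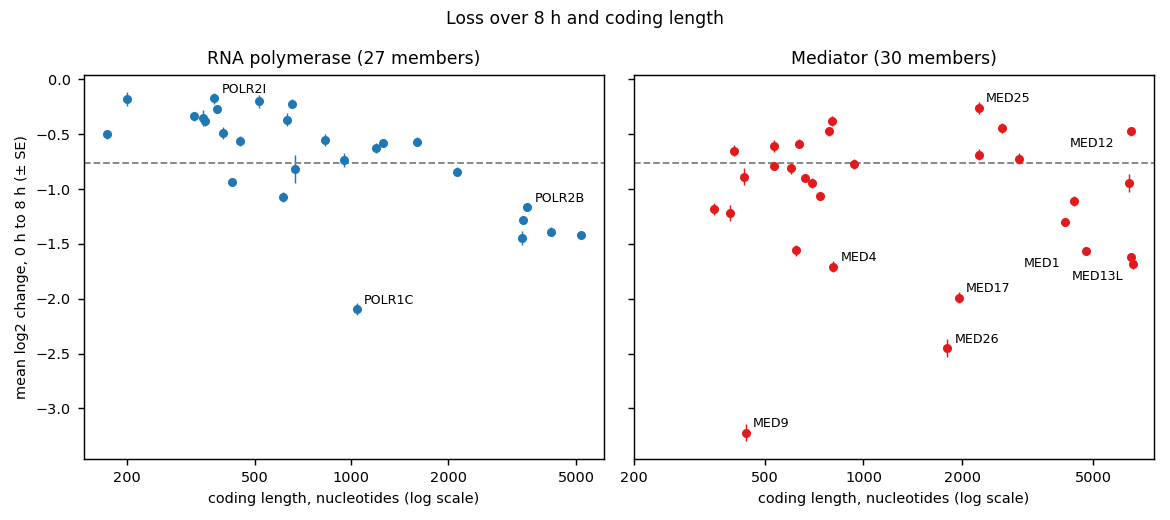
Mean log2 change from 0 h to 8 h over 4 genotypes (vertical axis, bars are SE) against coding length in nucleotides (horizontal axis, log scale) for 27 polymerase and 30 Mediator members. The dashed line is the median of all genes. The polymerase members drawn with long coding sequences lie low, and Mediator members show no such order. POLR2A is not drawn.

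Overlapping genes limit some of these values, since the kit keeps strand but whether counting used it is not given in the sources used here. More than 10% of the chosen transcript lies in exons of another gene on the same strand for MED6, MED17, MED26, POLR2J2 and POLR3GL. On the opposite strand this holds for 11 members, among them MED31 (74.2%), POLR2I (45.9%), MED12L (33.8%) and MED28 (32.4%), and POLR3K is also among them. MED9 and MED13 are in neither set.

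Before the chase, few of these mRNAs differed between QKI-targeted and control cells. Between sgQKI+EV and sgNS+EV at 0 h, 1 of 61 members passed the threshold, against 1.55% of all genes. It was POLR3GL, the POLR3G relative described among the slow members. POLR3GL read 36.0 and 39.0 in sgNS+EV and 28.2 and 26.8 in sgQKI+EV, without overlap (limma, log2 difference -0.43, SE 0.08, adjusted p = 0.0089). The call was lost without replicate 2 of sgNS+EV (-0.38, adjusted p = 0.171) or replicate 2 of sgQKI+EV (-0.40, adjusted p = 0.187).

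POLR3GL stayed lower through the chase. At 4 h it read 42.5 and 39.5 in sgNS+EV and 28.5 and 25.6 in sgQKI+EV (limma, difference -0.58, adjusted p = 0.000113). At 8 h the values were 32.3 and 31.9 against 22.2 and 23.6 (-0.47, adjusted p = 0.000474). Its loss from 0 h to 8 h was alike in size, at -0.22 in sgNS+EV and -0.25 in sgQKI+EV, a difference of -0.03 (SE 0.12, limma adjusted p = 0.919). With QKI7 added, the 0 h signal lay between the other genotypes, at 28.8 and 33.0 for QKI7-WT and at 31.2 and 32.3 for QKI7-△KH. Neither differed from sgNS+EV past the threshold (-0.27, adjusted p = 0.118, and -0.23, adjusted p = 0.0769) nor from sgQKI+EV (0.16, adjusted p = 1, and 0.20, adjusted p = 0.0964). These comparisons share the same control libraries.

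In the fit to all 12 groups, the comparisons of QKI7-WT at 0 h gave no calls among the members. Those of QKI7-△KH with sgQKI+EV and sgNS+EV gave calls that depended on the scale. QKI7-WT against sgQKI+EV gave 0 of 61 (limma, 0.0877% of all genes). At an unadjusted p under 0.05 it gave 2 members and 4.75% of all genes. QKI7-WT against QKI7-△KH gave 0 (limma, 3.75% of all genes), with 15 members and 25.9% of all genes unadjusted. QKI7-WT against sgNS+EV gave 0 (limma, 1.63% of all genes), with 2 members and 12.1% of all genes unadjusted. QKI7-△KH was higher than sgQKI+EV for 6 polymerase and 3 Mediator rows (12.6% of all genes): POLR1B, POLR1E, POLR2B, POLR2D, POLR2J, POLR3C, MED13, MED20 and MED28, by 0.20 to 0.35 log2 units. The median of all genes was 0.19 in the same comparison. All 9 calls were lost on the scale of library totals, under quantile normalisation, and without replicate 1 of QKI7-△KH or either replicate of sgQKI+EV, and 5 members passed without replicate 2 of QKI7-△KH. QKI7-△KH against sgNS+EV gave 5 polymerase and 4 Mediator rows, all higher, against 11.4% of all genes in either direction. On library totals 2 members were lower and 2 higher (8.02% of all genes), and under quantile normalisation 3 were lower and 1 higher (12.7% of all genes).

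**Figure D5:**
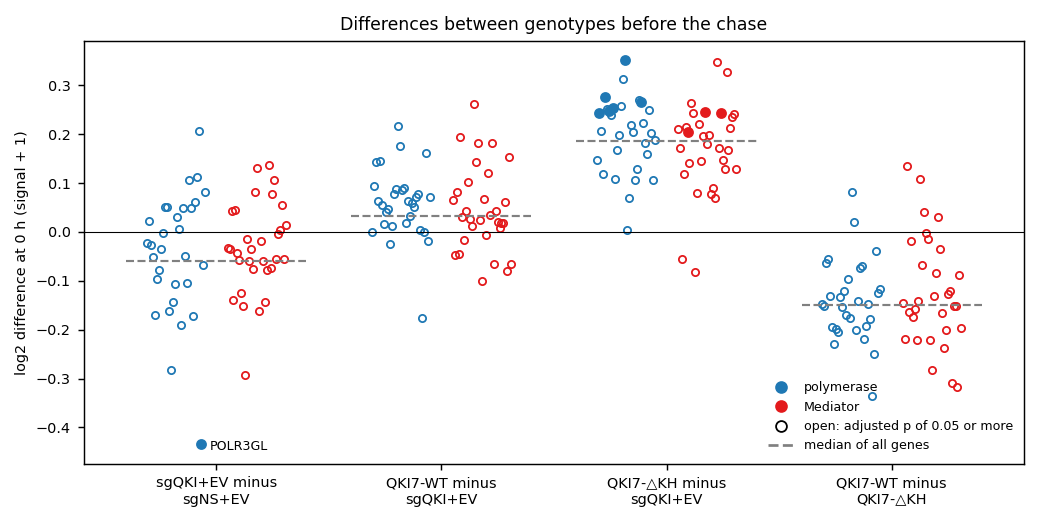
Log2 difference in signal + 1 at 0 h (vertical axis) for the polymerase and Mediator rows in 4 comparisons between genotypes (horizontal axis). Filled points passed an adjusted p under 0.05, and dashed lines are medians of all genes. POLR3GL is the filled point in the first comparison, and the 9 filled points in the third lie around a median of all genes of 0.19.

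No member passed the test of a difference in loss between genotypes. For sgQKI+EV against sgNS+EV, limma gave 0 of 61 (0.677% of all genes), with 19 members and 17% of all genes at an unadjusted p under 0.05. These 19 were 5 of 30 polymerase and 14 of 31 Mediator rows. The estimated difference was below 0, a larger fall in sgQKI+EV, for 26 of 30 polymerase and 27 of 31 Mediator rows and for 79% of all genes. The medians were -0.16 and -0.24, and the median of all genes was -0.14. This lean depends on the scale. On library totals, 20 polymerase rows, 24 Mediator rows and 64.1% of all genes were below 0, with class medians of -0.07 and -0.15. Under quantile normalisation these were 15 rows, 22 rows and 51.7%, with class medians of 0.01 and -0.08. MED6 of the head had the lowest adjusted p (-0.40, SE 0.10, adjusted p = 0.0598), and MED13L the largest estimate (-0.44, SE 0.12, adjusted p = 0.0945). A fit to the compared groups alone called 10 members, against 10.9% of all genes, all with the larger fall in sgQKI+EV: MED1, MED6, MED7, MED13, MED13L, MED27, MED30, POLR2A, POLR2B and POLR2D. For QKI7-WT against QKI7-△KH, limma gave 0 of 61 (0% of all genes), with 0 members and 0.956% of all genes unadjusted.

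During the chase, levels in sgQKI+EV and sgNS+EV differed for more members, as they did for many genes. At 4 h, 11 polymerase and 13 Mediator rows passed (40.8% of all genes), of which 19 were lower and 5 higher in sgQKI+EV. On library totals 21 were lower and 5 higher (47.2% of all genes), and under quantile normalisation 8 were lower and 11 higher (44.4%). As deposited, the lower ones included POLR3G (-0.81), MED13L (-0.53), MED21 (-0.53) and MED17 (-0.42), and the higher ones were POLR2L (0.46), POLR2E (0.45), MED16 (0.36), POLR2I (0.34) and POLR2C (0.30). At 8 h, 9 polymerase and 16 Mediator rows passed (34.3% of all genes), all lower in sgQKI+EV, among them MED13L (-0.49), MED25 (-0.45), MED12 (-0.44), POLR1E (-0.44) and POLR2A (-0.41). These calls depend on the scale: on library totals 0 members were lower and 1 higher (5.38% of all genes), and under quantile normalisation 4 were lower and 1 higher (8.05%). Over all times, the 3 genotypes with sgQKI differed from sgNS+EV for 6 polymerase and 9 Mediator rows (28.7% of all genes), 8 lower and 7 higher. On library totals 8 were lower and 12 higher (34.7%), and under quantile normalisation 6 were lower and 16 higher (38.3%). POLR3GL had the largest difference, at -0.36 (SE 0.04, limma adjusted p = 1.46e-06).

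Other parts of the transcription machinery spanned a like range. Of 34 listed general transcription factors of polymerase II, 34 fell, with a median of -0.80. GTF2B, the factor that places polymerase II at the promoter, changed by -2.24 and TAF5 of the TFIID complex by -1.96, and TAF10 and TAF12 of the same complex by -0.25 and -0.26. Of 27 listed pausing and elongation factors, 27 fell (median -1.002), from CCNT1, the cyclin of the elongation kinase, at -1.80 and CDK12 at -1.45 to NELFE at -0.39 and SUPT5H at -0.33. Of 22 polymerase I and III factors, 21 fell (median -0.74). GTF3C2 and GTF3C4, which recognise polymerase III promoters, changed by -1.88 and -1.87 and GTF3C6 by -0.26, while TAF1C was at 0.01 (SE 0.07, limma adjusted p = 0.907). Large complexes outside transcription had smaller medians: -0.53 for 36 proteasome rows, -0.46 for 79 mitochondrial ribosome rows and -0.24 for 105 cytosolic ribosome rows. The 2 ribosome sets were taken by the start of the symbol alone (MRPL or MRPS, and RPL or RPS). They can therefore hold genes that are not ribosome subunits. In the cytosolic set 7 rows fell by at least 1 log2 unit, the lowest at -4.89. The polymerase median of -0.56 lay near that of the proteasome rows.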

How the data were processed

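PolyA RNA from 24 U2OS libraries (4 genotypes, 3 times, 2 libraries a group) was read from 1 deposited table of 12547 endogenous genes and 38 ERCC rows. The authors' values are a signal normalised to spike-in RNAs, a reading that rests on the near-constant ERCC sums. STAR, RSEM and GRCh38 are named in the submitters' processing notes without versions. When and how the spike-in was added, and read depth, are not given in the sources used here. Precision was taken from replicates: the median SE was 0.106 log2 for a difference between groups and 0.0532 for the mean change over 4 genotypes.

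The members, gene lists and pairs were chosen with earlier results of these data known. Groups came from the sample titles. log2(value + 1) was fitted with 12 group means and a mean-variance trend in limma 3.58.1 (R 4.3.3), with 12 residual and 9 prior degrees of freedom. P-values are two-sided and Benjamini-Hochberg adjusted over 12547 genes, with a threshold of 0.05. A filter of at least 1 in 2 libraries removed 0 genes. The pair tests used log2 of the value without the added 1 and were adjusted over the 5 pairs. "Fell" and "rose" mean past the threshold. The script was tested on simulated data.

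Genes described in full were the 4 largest and 4 smallest falls of each class, POLR2A, 3 paralogue pairs and members past the threshold between genotypes at 0 h. Of other lists, the 2 largest and 2 smallest falls are named. Further members were named after their values were seen. Comparisons of sgQKI+EV with sgNS+EV at 4 h and 8 h, of added QKI7 with sgNS+EV, and over all times were added after seeing the data. Sequence windows came from GENCODE 29 transcripts, 1 coding model per gene, and were chosen after seeing the data. Alternatives changed the scaling, pseudocount, filter, samples fitted and replicate block, and left out each library. 1 member is counted but not reported here by itself.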

Additional observations from a re-analysis of the deposited data

How the results depend on the processing

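Counts of falls depended on the scale. On library totals, the rows lower at 8 h were 11 polymerase and 18 Mediator in sgNS+EV (48.9% of all genes) and 12 polymerase for the mean of 4 genotypes (62.3%), and 9 polymerase rows were lower by 4 h (50.8%). Under quantile normalisation they were 8 and 10 in sgNS+EV (26.9%), 9 and 16 for the mean (36.5%), and 8 and 13 by 4 h (30%). Higher were 13 and 8 in sgNS+EV (33.2%), 17 and 11 for the mean (45.8%), and 17 and 8 by 4 h (41.3%). The difference between class medians kept its sign but was -0.122 in sgNS+EV, -0.24 for the mean and -0.169 by 4 h under quantile normalisation. Leaving out 1 library at a time gave -0.322 to -0.198 in sgNS+EV and -0.383 to -0.316 for the mean. Changes from 0 h to 8 h turned upward for 8 named members on library totals: POLR3GL 0.329, POLR2G 0.364, POLR2L 0.383, POLR2I 0.391, MED12 0.0769, MED16 0.106, MED8 0.177 and MED25 0.295. Under quantile normalisation they were POLR3GL 0.639, POLR2G 0.369, POLR2L 0.455, POLR2I 0.499, MED12 0.394, MED16 0.424, MED8 0.413, MED25 0.582 and POLR3G 0.151. These scalings remove a loss shared by most genes by construction.

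At 0 h, sgQKI+EV against sgNS+EV called 7 members on library totals (8.23% of all genes), 4 from the compared groups alone (10.6%), and 0 to 1 with 1 library left out. QKI7-△KH against sgQKI+EV called 0 on library totals (0.375%) and under quantile normalisation (0.693%), 23 from the compared groups alone (29.8%), and 0 to 5 with 1 library left out. On library totals its differences were -0.0454 for MED13, -6.31e-05 for MED20, -0.00225 for MED28, -0.000877 for POLR1B and -0.00391 for POLR2B, and 0.0259 for POLR1E, 0.0025 for POLR2D, 0.101 for POLR2J and 0.0209 for POLR3C. QKI7-WT against QKI7-△KH called 1 member, MED7, with a mean value of at least 5 (5.45%) and with the replicate block (4.5%). The decay difference of sgQKI+EV and sgNS+EV called 10 from the compared groups alone (10.9%). Beyond the scaling and the smaller fits, the cause was not tested. Pseudocount 0.1 and no filter left all 15 counts and class differences on the same side.

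Replicate numbers showed no consistent pairing of the libraries across all groups. Of 66 correlations between groups of the difference of replicate 1 and 2, 21 were above 0.1, and they ran from -0.424 to 0.483. Whether some groups share a batch was not tested. Apart from MED7, the replicate block changed no count by over 1.5 times. Depth is unknown, so no counting limit can be given for the lowest members, MED9, MED12L and MED26 at 8 h.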
